A study of Mus musculus with 16 samples.

Results

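The genes described here are 6 that carry or report estrogen signalling in the wound: the estrogen receptor genes Esr1 and Esr2, the membrane estrogen receptor gene Gper1, the estrogen-related receptor gene Esrra, and the estrogen targets Pgr and Greb1. They were found by matching the accession of every array probe to these symbols through RefSeq. This gave 6 of the 20832 gene symbols and 10 of the 39429 probes on the array, with 3 probes for Esr1, 2 each for Pgr and Greb1 and 1 each for Esr2, Gper1 and Esrra. Where a gene had several probes, its value is that of the probe with the highest mean over all arrays, and the other probes are given beside it.

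RNA came from skin wounds, taken with surrounding intact skin, of female mice. The WT group was C57BL/6J, aged 10 to 12 weeks. The 3 other groups were db/db mice on C57BLKS/J, aged 10 weeks, which carry the Lepr db mutation of the leptin receptor and become obese and diabetic. Since the WT and db/db mice also differed in strain, strain and diabetes cannot be told apart. Wounds of the db/db + estrogen group were treated daily with estradiol benzoate in sesame oil and those of the db/db + vehicle group with sesame oil alone, while the WT and db/db groups were left untreated. Each group gave 4 arrays, 2 labelled as taken 7 days after wounding and 2 labelled as taken 14 days after it, for 16 arrays in all. The labels call the 2 arrays of a group biological replicates. The labelled days filled different slides and were scanned on different days, so labelled day and scan day cannot be told apart. The days under which the study lists its fold changes are exchanged relative to the labels of these arrays, and which of them is right is not known; the days here are those of the labels.

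Estradiol enters the cell and binds the nuclear receptors encoded by Esr1 and Esr2, which then act on DNA at estrogen response elements or through other factors. In the uterus and breast, the receptor encoded by Esr1 induces Pgr, the progesterone receptor, and Greb1, a coregulator that binds the estrogen receptor, and both are used as readouts of an estrogen response. Gper1 encodes a receptor at the membrane, coupled to G proteins, that responds to estradiol. Esrra encodes an orphan nuclear receptor that does not bind estradiol and regulates genes of mitochondria. In skin, estrogen receptors are found in keratinocytes, fibroblasts and cells of the hair follicle.

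The promoters of the genes that moved most are shown first, since an estrogen response element is a palindrome with the arms GGTCA and TGACC. RefSeq (GRCm38.p6) gave 8 windows of 300 bases for the 6 genes, each running from 250 bases before a start of transcription to 50 after it. The full element GGTCANNNTGACC was found in 0 of the 8 windows, and in 0.0700% of the 32851 windows of all genes. An arm on its own (GGTCA, or TGACC for the other strand; every full element also counts) was found in 4 of the 8 windows and in 40.5% of all windows. The windows of Pgr, of both starts of Greb1 and of the upstream start of Esr1 are given 5′ to 3′ in the direction of transcription, with the arms in capitals.
Pgr, chr9:8899583-8899882, plus strand: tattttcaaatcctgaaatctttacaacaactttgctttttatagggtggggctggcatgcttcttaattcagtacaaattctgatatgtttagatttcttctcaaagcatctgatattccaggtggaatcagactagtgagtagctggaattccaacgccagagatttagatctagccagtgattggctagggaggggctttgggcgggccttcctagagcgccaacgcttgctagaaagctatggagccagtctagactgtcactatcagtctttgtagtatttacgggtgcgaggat
Greb1, upstream start, chr12:16800837-16801136, minus strand: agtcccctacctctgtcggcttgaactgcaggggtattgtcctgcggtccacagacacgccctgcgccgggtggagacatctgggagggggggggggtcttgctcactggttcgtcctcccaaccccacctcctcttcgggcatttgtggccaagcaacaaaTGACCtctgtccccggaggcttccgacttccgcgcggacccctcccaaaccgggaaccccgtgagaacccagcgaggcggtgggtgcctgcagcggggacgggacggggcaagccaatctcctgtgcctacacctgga
Greb1, downstream start, chr12:16757190-16757489, minus strand: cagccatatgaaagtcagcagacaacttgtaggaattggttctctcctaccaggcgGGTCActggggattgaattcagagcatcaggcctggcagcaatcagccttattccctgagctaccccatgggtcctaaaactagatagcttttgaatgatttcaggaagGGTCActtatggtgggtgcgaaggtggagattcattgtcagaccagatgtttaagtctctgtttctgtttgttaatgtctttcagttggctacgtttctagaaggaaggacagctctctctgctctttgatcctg
Esr1, upstream start, chr10:4611739-4612038, plus strand: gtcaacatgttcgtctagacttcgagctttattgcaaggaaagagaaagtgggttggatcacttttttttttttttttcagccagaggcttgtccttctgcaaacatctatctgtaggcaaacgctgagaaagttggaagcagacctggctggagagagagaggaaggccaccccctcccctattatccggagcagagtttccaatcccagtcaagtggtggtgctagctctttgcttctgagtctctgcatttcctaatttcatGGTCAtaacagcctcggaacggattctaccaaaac
The Pgr window held no arm. The upstream Greb1 window held 1, which begins 88 bases before the start, and the downstream Greb1 window held 2, at 194 and 85 bases before the start. In the Esr1 window the arm begins at base 16 of the transcript. These matches describe the letters of the windows and say nothing of sites elsewhere.

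Levels below are log2 of the processed signal minus the log2 of the 75th percentile of the same array, so that 0 is the level of the 75th percentile. The 75th percentile ran from 1091 to 2548 over the arrays, no spot was saturated, and 70.1% to 79.0% of the probes were well above background on an array. Levels of different probes are not compared with each other. Comparisons were made with limma over the 8 groups. A probe was tested in a comparison if 1 of the groups compared had it well above background on both arrays. It is called at an unadjusted p below 0.05 with a fold change over 2. It is said to have risen or fallen only at a Benjamini-Hochberg adjusted p below 0.05, over all probes tested. The smallest p of an exact permutation test with 2 arrays a group is 0.333, so the p-values here rest on the spread that limma pooled over the groups. In whole wounds, fewer cells of a type and less RNA per cell cannot be told apart.

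Pgr and Greb1 were the genes that set treated wounds apart from untreated ones, and they did so in wounds given sesame oil alone as well as in those given estrogen. Pgr rose at least 71.3-fold with estrogen and at least 11.1-fold with vehicle over untreated db/db wounds on the arrays labelled day 7. On those labelled day 14 it rose at least 78.2-fold and at least 38.5-fold. Greb1 rose 149-fold and 26.8-fold on labelled day 7, and 86.0-fold and 43.5-fold on labelled day 14, by its brighter probe. Its dimmer probe gave 18.4-fold and 4.75-fold, and 11.5-fold and 6.39-fold, in the same order. Estrogen gave more of both than vehicle on labelled day 7, by 6.43-fold for Pgr and 5.56-fold for Greb1. On labelled day 14 neither difference from vehicle passed adjustment (limma's adjusted p = 0.754 and 0.786).

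Pgr encodes the progesterone receptor, a nuclear receptor for progesterone. On the arrays labelled day 7 its brighter probe was at −1.40 and −1.09 in db/db + estrogen wounds and at −3.76 and −4.11 in db/db + vehicle wounds. The untreated db/db wounds were at −9.51 and −9.22 and the WT wounds at −8.55 and −8.58, and none of these 4 arrays was well above background. The arrays labelled day 14 gave −1.31 and −0.63 with estrogen, −2.45 and −1.53 with vehicle, −9.66 and −9.14 in db/db and −9.84 and −9.19 in WT. The probe was thus well above background on all 8 arrays of treated wounds and on 0 of the 8 arrays of untreated wounds. Since db/db wounds gave only an upper bound, the folds given above are lower bounds: the db/db level was taken, array by array, as the lowest signal of any probe well above background, or as the Pgr signal where that was higher.

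Against these signals under background, the fitted log2 values depend on where the background was set and are not measured differences. In the comparisons with db/db the probe was tested only because the treated arrays were well above background. The adjusted p-values of these fits carry the same limit. The fitted value for Pgr between db/db + estrogen and db/db was 8.12 (SE 0.35, limma's adjusted p = 1.4e-05) on labelled day 7 and 8.43 (SE 0.35, adjusted p = 7.29e-06) on labelled day 14. Vehicle against db/db gave 5.43 (adjusted p = 0.000665) and 7.41 (adjusted p = 3.01e-05). With normexp background correction, which adds an offset to the signals, the 4 values were 3.74, 4.12, 1.57 and 3.22 in the same order, lower than the bounds above, and vehicle on labelled day 7 did not pass adjustment (adjusted p = 0.105). Directly against vehicle, estrogen gave 2.68 more (95% confidence interval 1.90 to 3.46, adjusted p = 0.00532) on labelled day 7. The difference on labelled day 14 was 1.02 (0.25 to 1.80), which was called but did not pass adjustment (adjusted p = 0.754). Leaving out 1 array moved it from 0.56 to 1.48, and the call was lost without db/db + vehicle replicate 1 or db/db + estrogen replicate 2. The estrogen and vehicle arrays did not overlap on either labelled day. Over both labelled days the group means fell in the order −0.97 (SD 0.48, n = 2) for estrogen of day 14, −1.25 (SD 0.22) for estrogen of day 7, −1.99 (SD 0.65) for vehicle of day 14 and −3.93 (SD 0.25) for vehicle of day 7. Of these neighbours only the estrogen groups overlapped, and the untreated groups, all under background, have no order. The gap between estrogen and vehicle was 1.66 wider on labelled day 7 than on labelled day 14 (SE 0.50), which did not pass adjustment over all probes (limma's adjusted p = 0.236).

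The dimmer Pgr probe put estrogen above vehicle and vehicle above untreated wounds too, with smaller differences. It was at −4.01 and −3.67 with estrogen, −5.58 and −6.09 with vehicle and −8.07 and −6.44 in db/db on labelled day 7, where db/db replicate 2 was well above background. Estrogen against db/db gave 3.42 (limma's adjusted p = 0.0102) and vehicle 1.42 (adjusted p = 0.315) there, so the vehicle rise on labelled day 7 rests on the brighter probe. Both passed on labelled day 14, with at least 11.3-fold for estrogen and at least 4.69-fold for vehicle (adjusted p = 0.0142 and 0.039). The estrogen difference from vehicle on labelled day 7 was 2.00 by this probe, with an adjusted p of 0.0944 from limma. For labelled day 14 it was 1.27 and not called (adjusted p = 0.786). The probes of Pgr correlated with r = 0.94 over the 16 arrays.

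**Figure D1:**
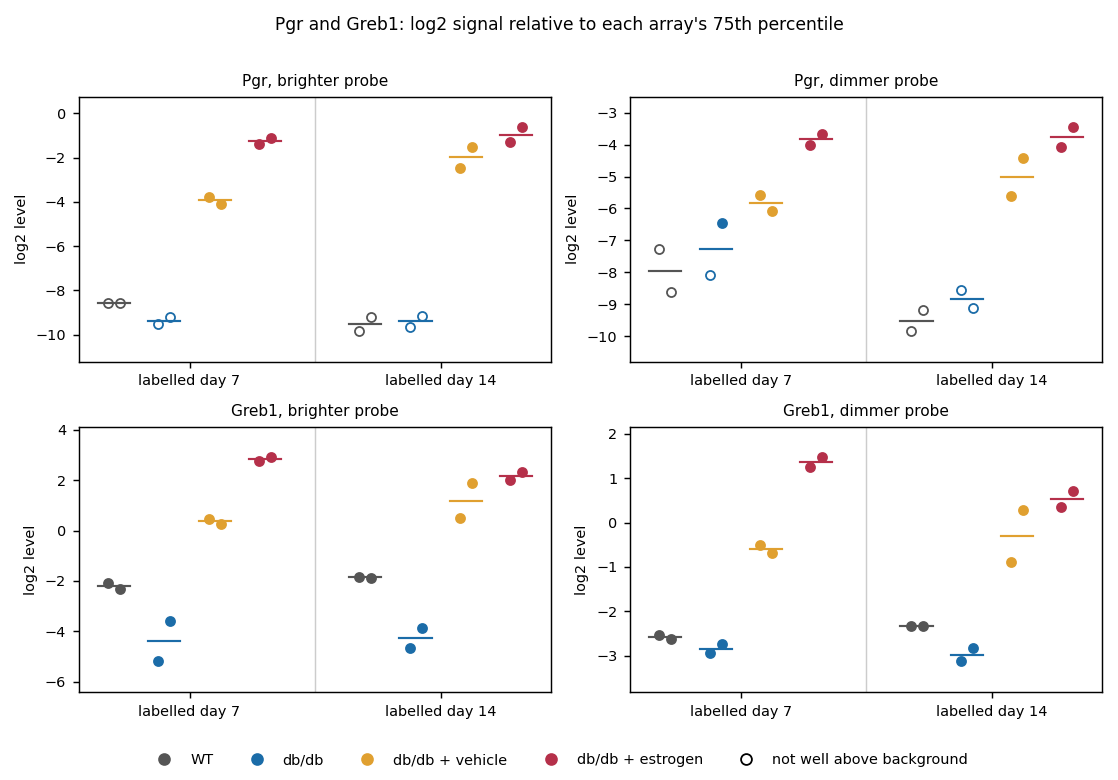
Level of Pgr and Greb1 on each of the 16 arrays, by probe. The vertical axis of each panel is the log2 signal relative to the array's 75th percentile, points are arrays, short lines are group means of 2 arrays, and open points are not well above background. The 8 treated arrays lie above the 8 untreated ones in all 4 panels.

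Greb1 is an early target of the estrogen receptor and was well above background on all 16 arrays by both probes. Its brighter probe was at 2.77 and 2.90 with estrogen, 0.45 and 0.28 with vehicle, −5.19 and −3.57 in db/db and −2.07 and −2.30 in WT on labelled day 7. The labelled day 14 values were 2.01 and 2.33, 0.50 and 1.87, −4.66 and −3.85, and −1.85 and −1.87 in the same order. No array of one group reached those of another within a labelled day, and the order was estrogen, vehicle, WT and db/db on both. The means ran from 2.84 (SD 0.09, n = 2) for estrogen and 0.36 (SD 0.12) for vehicle to −2.18 (SD 0.17) for WT and −4.38 (SD 1.14) for db/db on labelled day 7, where the db/db arrays spread most.

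Estrogen against db/db gave log2 differences in Greb1 of 7.22 (SE 0.52, limma's adjusted p = 0.000276) and 6.43 (SE 0.52, adjusted p = 0.00136) on labelled days 7 and 14. Vehicle against db/db gave 4.74 (adjusted p = 0.0133) and 5.44 (adjusted p = 0.00684). The brighter probe ranked between 3 and 8 by p among all probes tested in these 4 comparisons. Estrogen exceeded vehicle by 2.47 (1.31 to 3.64, adjusted p = 0.0329) on labelled day 7. For labelled day 14 the difference was 0.98 (−0.18 to 2.14, adjusted p = 0.786), and db/db + vehicle replicate 2, at 1.87, lay just under the lower of the estrogen arrays. Leaving out 1 array moved the difference from 0.30, without db/db + vehicle replicate 1, to 1.67, without replicate 2, where it was called with an adjusted p of 0.831 from limma. On labelled day 7, leaving out any 1 of the 4 arrays kept the difference between 2.39 and 2.56, but its adjusted p then lay between 0.114 and 0.173.

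The dimmer Greb1 probe rose in the same comparisons. It was at 1.25 and 1.47 with estrogen, −0.51 and −0.68 with vehicle and −2.94 and −2.74 in db/db on labelled day 7. Its log2 differences from db/db were 4.20 and 3.52 with estrogen and 2.25 and 2.68 with vehicle on labelled days 7 and 14, and limma's adjusted p ran from 0.000276 to 0.0233 over the 4. Estrogen exceeded vehicle by 1.95 on labelled day 7 (adjusted p = 0.0103) and by 0.84 on labelled day 14 (adjusted p = 0.754).

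Greb1 was also lower in untreated db/db wounds than in WT wounds by its brighter probe, by −2.20 (SE 0.52, limma's adjusted p = 0.0212) on labelled day 7 and −2.40 (adjusted p = 0.0115) on labelled day 14. The dimmer probe gave −0.27 and −0.65 (adjusted p = 0.592 and 0.151), so this fall was seen with 1 of the 2 probes. Leaving out 1 array, the adjusted p reached 0.118 on labelled day 7 and 0.087 on labelled day 14. The db/db and WT arrays of labelled day 14 shared no slide, and with slide as a block the difference there was −1.56 (adjusted p = 0.193). The probes of Greb1 correlated with r = 0.97 over the 16 arrays.

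Both genes were also higher in treated than in untreated db/db wounds within each of the 3 slides that held both. On the slides of labelled day 7, each with 1 array per group, the Pgr signal was 8.10 and 8.13 higher with estrogen than in db/db and 5.75 and 5.11 higher with vehicle. These Pgr values, too, are against db/db signals not well above background. Greb1 was 7.96 and 6.47 higher with estrogen and 5.64 and 3.85 higher with vehicle. On the labelled day 14 slide that held both db/db arrays, the differences were 8.09 and 6.95 for Pgr and 6.27 and 4.76 for Greb1, with estrogen and vehicle in that order.

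Marker genes of the cells in the wound were read on the same arrays. The counts of called marker genes below stand beside the shares of all probes called against db/db. These were 10% with estrogen and 4.94% with vehicle on labelled day 7, and 4.01% and 7.68% on labelled day 14. The sum of 4 keratinocyte genes (Dsp, Krt5, Krt10 and Krt14), in multiples of the 75th percentile, was 178 to 269 in db/db, 360 to 446 with vehicle and 317 to 406 with estrogen on labelled day 7. In WT wounds of labelled day 7 it was 336 to 361. The sums of labelled day 14 were 164 to 317, 396 to 435, 248 to 441 and, in WT, 326 to 400. All 4 genes were well above background in every group, and 0 of the 4 passed adjustment in any of the 8 comparisons; at the unadjusted threshold, Krt5 with estrogen on labelled day 7 and Krt14 with vehicle on labelled day 14 were called. The sum of 5 fibroblast genes lay between 362 and 619 over all 16 arrays. Sebaceous gland genes (Elovl3, Mc5r, Scd1 and Scd3) had higher sums in both treated groups than in db/db wounds on both labelled days. On labelled day 14 these sums were higher with vehicle than with estrogen. Their sums were 7.46 to 13.7 in db/db, 16.7 to 23.1 with vehicle and 22.0 to 28.3 with estrogen on labelled day 7, and 5.83 to 9.66, 16.3 to 23.4 and 10.1 to 11.2 on labelled day 14. Of the 4 genes, 2 were called with estrogen and 0 with vehicle over db/db on labelled day 7, and 2 and 3 on labelled day 14. In WT wounds the sums were 24.0 to 31.1 and 9.12 to 13.9. All 4 hair follicle genes described below rose with estrogen on labelled day 7. Adipocyte, skeletal muscle, macrophage and endothelial lists had 0 genes called in any comparison of treated with db/db wounds, and the T cell list had 1, Cd3g, with estrogen on labelled day 7. The part of these cells in the Pgr and Greb1 differences was not tested.

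Esr1, which encodes estrogen receptor alpha, was lower in db/db than in WT wounds and higher with estrogen on the arrays labelled day 7. There its brightest probe was at −1.13 and −1.61 in WT, −3.53 and −3.22 in db/db, −3.31 and −3.41 with vehicle and −2.10 and −1.85 with estrogen. The arrays of db/db and vehicle overlapped, while those of estrogen lay above both and below WT. Esr1 fell by 2.01 from WT to db/db on the log2 scale, a 4.02-fold difference (limma's adjusted p = 0.00628). Estrogen raised it by 1.40 over db/db, or 2.65-fold (SE 0.35, adjusted p = 0.0436). Vehicle differed from db/db by 0.02 (−0.77 to 0.81).

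The difference in Esr1 between estrogen and vehicle on labelled day 7 was 1.38 (0.59 to 2.17), which was called but lay above the adjusted threshold (limma's adjusted p = 0.0563). The estrogen rise over db/db also lost its adjusted threshold, though not its call, when any 1 of the 4 arrays was left out (adjusted p from 0.0949 to 0.214). Within the slides of labelled day 7 the rise over db/db was 1.44 and 1.37. The second probe of Esr1, which correlated with the first with r = 0.84 over the 16 arrays, gave −0.82 for db/db against WT, 0.89 for estrogen against db/db and 0.85 for estrogen against vehicle. Their adjusted p-values were 0.0517, 0.0626 and 0.0841, and all 3 folds were under 2. The third probe was well above background on 1 of the 16 arrays and was not tested.

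On the arrays labelled day 14 Esr1 was at −1.46 and −2.12 in WT, −2.27 and −2.79 in db/db, −2.59 and −1.72 with vehicle and −2.04 and −1.34 with estrogen. Vehicle overlapped every other group. The differences were −0.74 for db/db against WT (−1.54 to 0.05), 0.85 for estrogen against db/db (0.06 to 1.63) and 0.47 for estrogen against vehicle (−0.32 to 1.25), and none was called. The intervals of labelled day 14 do not exclude a 2-fold change, and the labelled days did not differ after adjustment (limma's adjusted p from 0.28 to 0.987 over the 4 comparisons).

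Hair follicle genes, like Esr1, were lower in db/db than in WT wounds and higher with estrogen on labelled day 7. All 4 of the list (Krt25, Krt27, Krt71 and Lhx2) fell from WT to db/db and rose from db/db to estrogen by limma's adjusted p. Over all probes, 7.43% fell and 3.15% rose in these comparisons. Their summed level in multiples of the 75th percentile was 2.95 to 26.6 in WT, 0.153 to 0.214 in db/db, 0.264 to 2.39 with vehicle and 8.84 to 12.1 with estrogen. Neither db/db array had Krt25 well above background. With vehicle on labelled day 7, Krt25 and Krt71 were called higher than in db/db, beside 4.94% of all probes, and 0 of the 4 passed adjustment. The median log2 difference of the list was 3.57 there, where Esr1 differed by 0.02. The sums of labelled day 14 were 0.691 to 0.867, 0.187 to 0.293, 0.570 to 0.833 and 0.375 on both estrogen arrays. Melanocyte genes (Dct, Mlana, Pmel and Tyr) had sums of 6.90 to 9.65 in WT, 1.51 to 1.60 in db/db, 0.230 to 1.90 with vehicle and 2.73 to 4.37 with estrogen on labelled day 7. Of the 4, 2 were called lower in db/db than in WT and 2 higher with estrogen than in db/db, beside 14.2% and 10% of all probes called in either direction. On labelled day 14 the 4 sums ran from 0.818 to 1.04 in db/db, 0.815 to 0.853 with vehicle, 0.636 to 0.865 with estrogen and 1.22 to 3.84 in WT. The sebaceous sums given above were also lowest in db/db on labelled day 7. The part of these cells in the Esr1 values was not tested.

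Esr2, which encodes estrogen receptor beta, was read by 1 probe, which was well above background on all 16 arrays. The sequence of this probe was not checked here. Its signal closely followed those of Heatr3, Ap5z1 and Csf3r, described below, with r = 0.99 each, so whether it reads Esr2 alone is not known. On labelled day 7 it was at 1.98 and 1.31 in WT, 0.99 and 1.79 in db/db, 1.74 and 1.67 with vehicle and 1.39 and 1.14 with estrogen, and estrogen lay below vehicle with no overlap. Estrogen differed from db/db by −0.12 (−1.03 to 0.78) and from vehicle by −0.44 (−1.35 to 0.46). The labelled day 14 levels were 0.78 and 1.78 in WT, −0.02 and 0.16 in db/db, 0.79 and 0.20 with vehicle and 0.73 and −0.05 with estrogen. There db/db was 2.32-fold lower than WT, a difference of −1.21 (SE 0.41) that was called but did not pass adjustment (limma's adjusted p = 0.0586). The call was lost without db/db replicate 1 or without WT replicate 2. Estrogen and vehicle differed from db/db by 0.27 (−0.63 to 1.17) and 0.43 (−0.47 to 1.33).

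Gper1 lay in a narrow range, from −4.02 to −3.12 over all 16 arrays, and was well above background on each. Levels on labelled day 14 were −3.13 and −3.12 in db/db, −3.59 and −3.70 with vehicle and −4.02 and −3.48 with estrogen, so that both treated groups lay below db/db without overlap. The differences were −0.62 for estrogen (−1.09 to −0.16) and −0.52 for vehicle (−0.99 to −0.05), neither of which passed adjustment (limma's adjusted p = 0.337 and 0.221). On labelled day 7 they were −0.39 and −0.29. Estrogen and vehicle differed by −0.10 on both labelled days, with intervals of −0.57 to 0.37 and −0.57 to 0.36. No comparison of Gper1 reached a fold change of 2.

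Esrra varied least, from 2.35 to 2.81 over the 16 arrays. The largest difference was 0.29 for estrogen against db/db on labelled day 14 (0.03 to 0.56, limma's adjusted p = 0.449). Vehicle differed from db/db by 0.18 on both labelled days. Every interval of Esrra over the 8 comparisons lay within a 2-fold change.

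**Figure D2:**
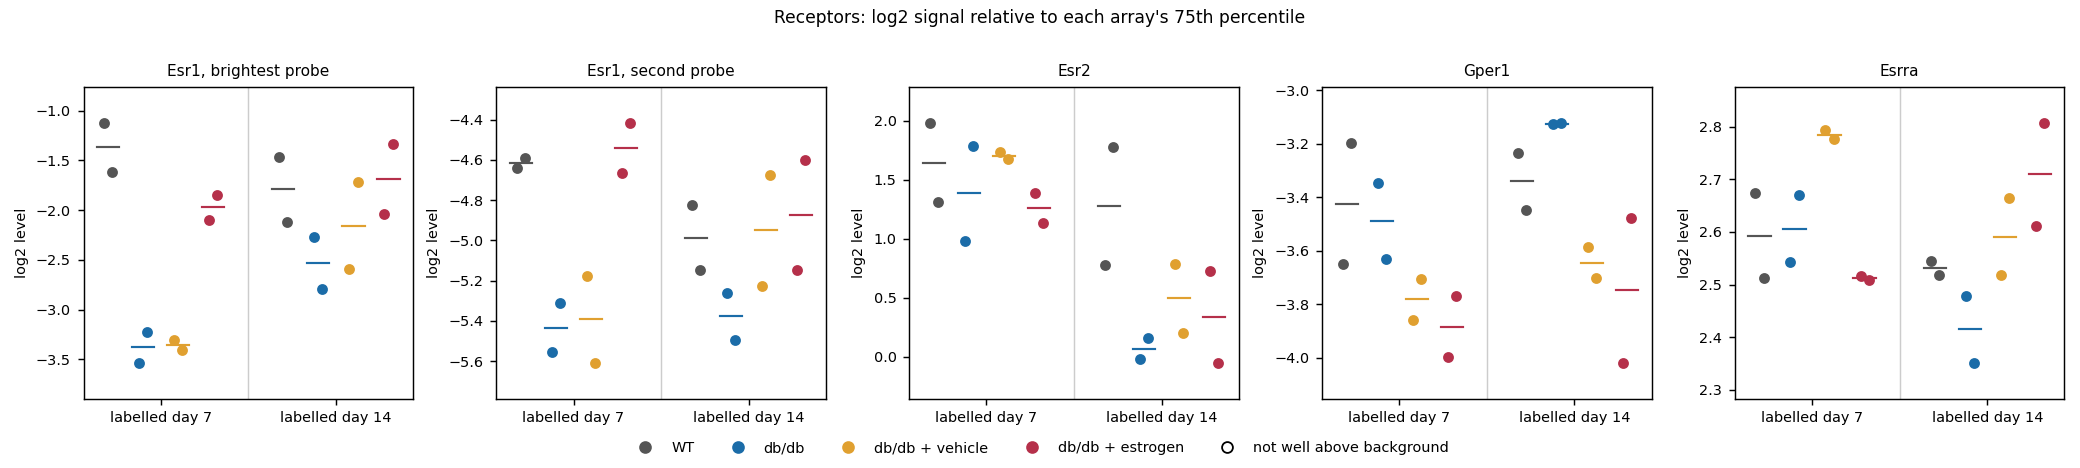
Level of the receptor genes on each of the 16 arrays. The vertical axis of each panel is the log2 signal relative to the array's 75th percentile on a scale of its own, points are arrays and short lines are group means of 2 arrays. Esr1 in db/db and vehicle wounds of labelled day 7 lies below WT and estrogen, while Esrra spans 2.35 to 2.81 in all.

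Over the 6 genes, estrogen against db/db called 3 (Esr1, Pgr and Greb1) on labelled day 7, where 10% of all probes tested were called, and 2 (Pgr and Greb1) on labelled day 14, where 4.01% were. Vehicle against db/db called Pgr and Greb1 on both labelled days, beside 4.94% and 7.68% of all probes. In these comparisons of treated with db/db wounds, Pgr was tested through the treated arrays alone. Estrogen against vehicle called Esr1, Pgr and Greb1 on labelled day 7, beside 9.1% of all probes, and Pgr alone on labelled day 14, beside 1.04%. Db/db against WT called Esr1 and Greb1 of the 5 genes tested on labelled day 7, beside 14.2% of all probes, and Esr2 and Greb1 on labelled day 14, beside 18.1%. Pgr was not tested there, since neither group had a probe of it well above background on both arrays. After adjustment Esr1, Pgr and Greb1 had risen with estrogen over db/db on labelled day 7, beside 3.15% of all probes that rose, and Pgr and Greb1 had risen over vehicle, beside 2.43%. Esr1 and Greb1 had fallen from WT to db/db on labelled day 7, beside 7.43% of all probes, and Greb1 on labelled day 14, beside 16.6%.

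Few probes passed adjustment with vehicle, or with estrogen on labelled day 14, and probes of Pgr and Greb1 were among them. On labelled day 7, 23 probes rose with vehicle over db/db (0.0773% of those tested), and 3 of them were of Pgr and Greb1. The labelled day 14 arrays had 80 rise with vehicle (0.276%) and 40 with estrogen (0.142%), and all 4 probes of Pgr and Greb1 were in both sets. The Pgr probes were tested against db/db through the treated arrays alone, so their place in these sets carries that limit. In a fit of the 4 arrays compared alone, 0 probes passed for vehicle on labelled day 7 or for estrogen on labelled day 14, where limma's adjusted p of Pgr was 0.204 and 0.150 and that of Greb1 0.294 and 0.150, with 1332 and 1082 probes called. The estrogen and vehicle comparisons share their db/db arrays. For estrogen against vehicle on labelled day 14, 0 of all probes (0%) rose by limma's adjusted p.

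**Figure D3:**
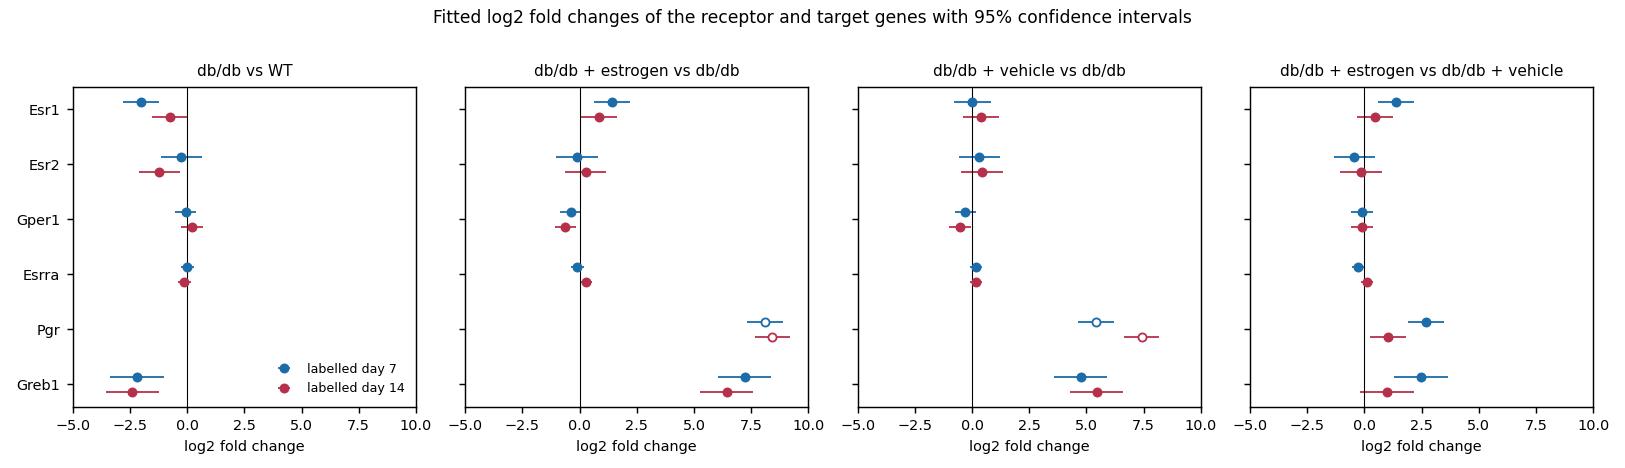
Fitted log2 fold change of each gene in each comparison with its 95% confidence interval, for labelled days 7 and 14. Each panel is 1 comparison with the log2 fold change on the horizontal axis, and open points mark a fold change against a group that was not well above background, where the fitted value is not a bound. Pgr and Greb1 lie far to the right in both comparisons of treated with db/db wounds, where the points of Esr2, Gper1 and Esrra lie within a 2-fold change. In db/db against WT, Esr2 of labelled day 14 lies at −1.21.

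Of 24 other genes known to be induced by estrogen in reproductive tissues, 10 were called with estrogen against db/db on labelled day 7, of which 5 were higher and 5 lower, beside 10% of all probes called. Vehicle against db/db called 6 and estrogen against vehicle 6 there, each with 3 higher and 3 lower, beside 4.94% and 9.1%. After adjustment 4 had risen and 1 had fallen, where 3.15% of all probes rose and 3.67% fell. The median log2 difference of the list was −0.26, against 0.04 over all probes. Ramp3, a partner of the calcitonin receptor-like receptor, was at 2.32 and 1.77 with estrogen against −1.18 and −0.71 in db/db, a rise of 2.99 (limma's adjusted p = 0.00337). It also exceeded vehicle by 2.48 (adjusted p = 0.0137), and vehicle differed from db/db by 0.52 (adjusted p = 0.595). Oxtr, the oxytocin receptor, rose by 2.83 over db/db (adjusted p = 0.0301). The prolactin receptor gene Prlr and the growth factor gene Igf1 rose by 2.33 and 1.17 (adjusted p = 0.0139 and 0.0155).

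Ltf, the lactoferrin gene, which is estrogen-induced in the mouse uterus and is also a gene of neutrophil granules, went the other way. It was at 3.25 and 1.76 in db/db on labelled day 7 and at −5.84 and −6.79 with estrogen, so it fell by 8.82 on the log2 scale (limma's adjusted p = 0.000373). With vehicle it fell by 6.91 (adjusted p = 0.0133), to −5.51 and −3.28. All 4 genes of the neutrophil list (Camp, Ngp, Retnlg and S100a8) fell with estrogen there, and their summed level was 2.02 to 6.74 against 190 to 202 in db/db and 161 to 200 with vehicle. With vehicle, Camp and Ngp fell by 6.08 and 7.03 (adjusted p = 0.0231 and 0.0485), while S100a8 differed by 0.16 (adjusted p = 0.903), and the median of the list was −4.55. The part of neutrophils in the Ltf values was not tested. Tff1, which encodes a secreted trefoil peptide, differed by −2.87 between estrogen and vehicle (adjusted p = 0.0265). Igf1 was 0.99 higher there (adjusted p = 0.0424), and Vegfa, the vascular endothelial growth factor gene, differed by −2.55 (adjusted p = 0.00571).

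Of the 24 genes, 4 were called on labelled day 14 with estrogen against db/db (Areg, Fos, Ltf and Ramp3), 2 higher and 2 lower. Vehicle against db/db called 6, of which 4 were higher and 2 lower. In both comparisons 0 of the genes passed adjustment. Estrogen against vehicle called 1, Tff1, at −2.19 (limma's adjusted p = 0.754). Over all probes, 4.01%, 7.68% and 1.04% were called in these comparisons.

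Among 13 other steroid, orphan and membrane progestin receptor genes, 11 were tested with estrogen against db/db on labelled day 7 and 4 were called, all higher, beside 10% of all probes called in either direction. Paqr7, a membrane progestin receptor, was at 2.30 and 2.71 with estrogen, −0.12 and 0.18 in db/db and −0.19 and 0.93 with vehicle. It rose by 2.47 over db/db (limma's adjusted p = 0.0032) and by 2.13 over vehicle (adjusted p = 0.011). Paqr6, another membrane progestin receptor gene, rose by 1.39 over db/db (adjusted p = 0.0361) and differed from vehicle by 1.03 (adjusted p = 0.109). The glucocorticoid receptor gene Nr3c1 was 0.65 higher than with vehicle (adjusted p = 0.0412). The median of the list was 0.40 over db/db, against 0.04 for all probes. None of the 11 tested on labelled day 14 was called in any of the 3 comparisons of treated wounds. Over all probes, 4.01% were called there with estrogen and 7.68% with vehicle against db/db, and 1.04% with estrogen against vehicle.

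**Figure D4:**
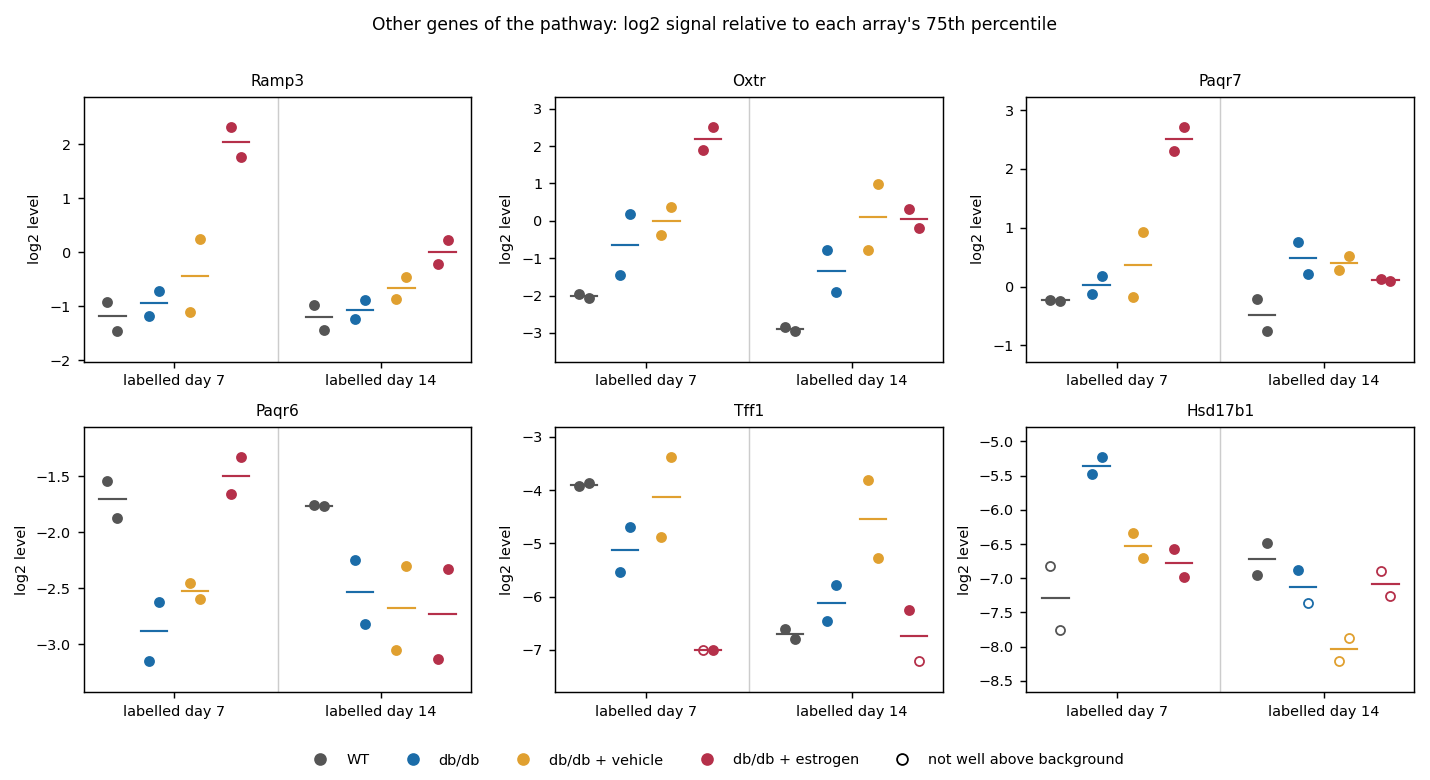
Level of Ramp3, Oxtr, Paqr7, Paqr6, Tff1 and Hsd17b1 on each of the 16 arrays. The vertical axis of each panel is the log2 signal relative to the array's 75th percentile, points are arrays, short lines are group means of 2 arrays, and open points are not well above background. Ramp3 and Paqr7 in estrogen wounds of labelled day 7 lie above every other group of that label.

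Of 16 genes that make or inactivate estradiol, 13 were tested with estrogen against db/db on labelled day 7 and 2 were called, Cyp1a1 higher and Hsd17b1 lower, beside 10% of all probes. Of 11 tested on labelled day 14, 2 were called, beside 4.01%, and neither passed adjustment. Hsd17b1, which reduces estrone to estradiol, was at −5.48 and −5.23 in db/db and −6.58 and −6.98 with estrogen, and it fell by 1.42 on the log2 scale (limma's adjusted p = 0.0299). The lowest signals well above background on these estrogen arrays were −7.00 and −7.44. With vehicle, Hsd17b1 and Cyp1b1 were called lower than in db/db, beside 4.94% of all probes, and neither passed adjustment. Between estrogen and vehicle Hsd17b1 was not among the genes called. The aromatase gene Cyp19a1, which makes estrogens from androgens, was not among those called. Of 18 coregulator and pioneer factor genes, 17 were tested and 1 was called with estrogen against db/db on labelled day 7: Gata3, a pioneer factor for the estrogen receptor, which differed by 1.83 (adjusted p = 0.0785), beside 10% of all probes called. None of the 17 was called with estrogen against vehicle on either labelled day, beside 9.1% and 1.04% of all probes. Vehicle against db/db called Tfap2c higher on labelled day 7, and Gata3 and Tfap2c higher on labelled day 14. These calls stood beside 4.94% and 7.68% of all probes, and 0 of them passed adjustment. Of 10 partners and targets of Esrra, 0 were called with estrogen against db/db or against vehicle on either labelled day. Over all probes, 10% and 4.01% were called against db/db on labelled days 7 and 14, and 9.1% and 1.04% against vehicle. Vehicle against db/db called 0 on labelled day 7 and 1, Ppargc1a (lower), on labelled day 14, beside 4.94% and 7.68%. Cs, which encodes citrate synthase, rose by 0.55 with estrogen over db/db on labelled day 7 (adjusted p = 0.0324), and the medians of the list were 0.43 and 0.54 over db/db and vehicle there, against 0.04 and 0.01 for all probes.

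The genes whose levels were most like those of each receptor or target were found by Pearson's r over the 16 arrays, among 16872 genes well above background on at least 8 arrays. These values are a description, since arrays of a group share their treatment. Pgr was most like Ptpn5 (r = 0.98), Greb1 (r = 0.94) and Tmem229a (r = 0.92). The Pgr probe was well above background on 8 of the 16 arrays, all of treated wounds. Its r values thus rest in part on signals under background, which have no order. Greb1 was most like Ptpn5 (r = 0.95), Pgr (r = 0.94) and Tmem229a (r = 0.93), so that Ptpn5 and Tmem229a were near both. Ptpn5, which encodes a tyrosine phosphatase, had mean levels of 0.15 and 0.72 with estrogen, −1.32 and 0.10 with vehicle, −4.50 and −4.49 in db/db and −3.82 and −3.64 in WT on labelled days 7 and 14.

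The receptors had other neighbours. Esr1 was most like Samd5 (r = 0.89), Bcl2l13 (r = 0.88) and Adgrg6 (r = 0.88), with r of 0.93 to 0.97 on the arrays labelled day 7 and 0.76 to 0.81 on those labelled day 14. Esr2 followed Heatr3, Ap5z1 and Csf3r closely, each with r = 0.99, of which Csf3r encodes the receptor for granulocyte colony-stimulating factor and is found on neutrophils. The mean level of Csf3r on labelled day 7 was 5.77 in db/db and 5.39 with estrogen, where all 4 genes of the neutrophil list fell. For Gper1 the nearest genes were Ppp1r14a, St8sia6 and Gimap1, with r of 0.87 to 0.89. Esrra, which varied least, had Thumpd2, Ankrd33 and Luc7l2 at r of 0.77 to 0.79.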

How the data were processed

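Gene expression in 16 wound samples was measured on one-colour Agilent mouse 4 x 44 K arrays. The authors made the scanner files with Agilent Feature Extraction 11.0.1.1, and the deposited processed signal is an intensity, corrected for background and for spatial trends but not scaled between arrays. The deposited median pixel intensity and the flags for spots well above background were also used. The authors' series matrix holds a ratio per probe on a linear scale, which equalled the processed signal over the array's 75th percentile within 0.2% for 99.8% of values; it has 34643 probes, the 10 studied here included.

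Spots marked as outliers were left out, spots of a probe were averaged, log2 was taken and the log2 75th percentile of each array subtracted. RefSeq named 69.6% of the 39429 probes. limma 3.58.1 in R 4.3.3 was fitted with 1 coefficient for each of the 8 groups (8 residual degrees of freedom). Interactions compared the labelled days. The number of arrays limits the precision, and nothing besides the labels says that samples were separate animals.

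The genes and the 5 pathway and 11 marker lists, written from general knowledge, were chosen with earlier results of these data known. Of each pathway list, up to 4 genes past adjustment with estrogen, by size, were named, or otherwise the 2 of largest change among those called; the 3 most alike genes were named per gene. Other genes named beside a count were picked after their values were seen, and 1 gene that the rule names is not reported here. Sts and Cd68 had no named probe. Promoter windows came from RefSeq (GRCm38.p6), and the genome positions in the array design were not used. Alternatives were normexp background correction (offset 50, on median intensities), quantile normalization, other filters, a floor, the series matrix, the 4 arrays alone, slide or replicate as a block (statmod 1.5.0), other probes of a gene, Benjamini-Hochberg calls and leaving out each array.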

Additional observations from a re-analysis of the deposited data

Results flagged for a closer look

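Hsd17b1, which reduces estrone to estradiol, differed between the labelled days in its comparison of db/db with WT. The log2 difference on labelled day 7 exceeded that on labelled day 14 by 2.35 (SE 0.46, limma's adjusted p = 0.0479). On labelled day 7 the gene was at least 2.36-fold higher in db/db, at −5.48 and −5.23 against −6.83 and −7.76 in WT, where neither array was well above background. On labelled day 14 the difference was −0.41 (adjusted p = 0.392), with db/db at −6.89 and −7.36 and WT at −6.95 and −6.48. Of all probes tested, 0.995% passed the same test. The value of 2.35 rests on WT signals under background, and with normexp background correction the labelled day 7 difference was −0.015. The db/db and WT arrays of labelled day 14 shared no slide, and with slide as a fixed block 0 of 30849 probes passed, so this difference did not either. Of the 6 receptor and target genes, 0 differed between the labelled days after adjustment.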

How the results depend on the processing

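The number of the 6 genes called stayed within 1.5 times its value in 197 of 212 alternatives over all comparisons. With second probes for Esr1, Pgr and Greb1, db/db against WT called 0 genes on labelled day 7, 1 on labelled day 14, and estrogen against vehicle called 0 on labelled day 14; with the third Esr1 probe, which was too dim to test, db/db against WT on labelled day 7 called 1. With all arrays required to be well above background, Pgr could not be tested against db/db, and vehicle against db/db called 1 gene on labelled days 7 and 14, and estrogen against db/db 1 on labelled day 14. Benjamini-Hochberg calls gave 1 gene for db/db against WT on labelled day 14. For estrogen against vehicle on labelled day 14, where Pgr alone was called, normexp, quantile normalization, the fit of the 4 arrays and Benjamini-Hochberg calls gave 0, and leaving out 1 array gave 0 to 2: Pgr was lost without db/db + estrogen replicate 2 (or without db/db + vehicle replicate 1), and Greb1 was added without db/db + vehicle replicate 2. Leaving out 1 array gave 2 to 3 genes for estrogen against db/db on labelled day 14, with Esr1 added without db/db replicate 1 or db/db + estrogen replicate 1, and in db/db against WT on labelled day 14 the number stayed 2 while Esr1 (−1.01 and −1.07) took the place of Esr2 without db/db replicate 1 or WT replicate 2. No other number moved by more than 1.5 times. Smaller moves are not all listed: Benjamini-Hochberg calls gave 2 genes instead of 3 for estrogen against vehicle on labelled day 7.

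Of 708 recomputed log2 differences of the 6 genes, 16 lost their call, 5 gained one and 24 changed sign, of which 0 belonged to a called value. Quantile normalization gave 0.15 for Gper1 and −0.064 for Esrra (db/db against WT, labelled day 7) and −0.015 for Esr1 (vehicle against db/db, labelled day 7). Normexp gave 0.031 for Gper1 (estrogen against vehicle, labelled day 7). Outside the 6 genes and not among the 24, it gave −0.015 for Hsd17b1 (db/db against WT, labelled day 7). That value of Hsd17b1 was called in the main fit, at 1.94. Slide as a fixed block gave 0.041 for Esr1 and 0.054 for Esrra (db/db against WT, labelled day 14) and −0.013 for Esr1 (vehicle against db/db, labelled day 14). Leaving out 1 array gave −0.66 to 0.14 for Esr2, −0.29 to 0.16 for Gper1 and −0.068 to 0.095 for Esrra (db/db against WT, labelled day 7). Esr2 ranged from −0.52 to 0.28 for estrogen against db/db and −0.082 to 0.72 for vehicle against db/db on labelled day 7. On labelled day 14 it ranged from −0.12 to 0.66 for estrogen against db/db and −0.55 to 0.23 for estrogen against vehicle. Esr1 ranged from −0.14 to 0.18 and −0.057 to 0.82 for vehicle against db/db on labelled days 7 and 14. Gper1 ranged from −0.22 to 0.013 and −0.37 to 0.17 for estrogen against vehicle on these days. The cause was not tested.

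The deviations of same-numbered replicates gave 12 correlations between groups, from −0.46 to 0.39, of which 3 exceeded 0.1. These were db/db with vehicle on labelled day 7 (0.39), and estrogen with vehicle (0.27) and with WT (0.32) on labelled day 14. A replicate block changed the number of genes called in 0 of the comparisons; with it Pgr differed by 2.68 (adjusted p = 0.00385) and Greb1 by 2.47 (adjusted p = 0.0429) between estrogen and vehicle on labelled day 7, and Esr1 by 1.40 (adjusted p = 0.0885) between estrogen and db/db. Levels of the brighter Pgr probe in untreated wounds, from −9.84 to −8.55, were not well above background and have no order.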
